A study of Rattus norvegicus with 8 samples.

Results

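Microtubule-associated proteins and stathmins set how long the microtubules of a neuron last, and 10 of their genes were followed here through the 3′ ends of their RNAs in the rat hypothalamus. The 6 genes for microtubule-associated proteins were Map1a, Map1b, Map2, Map4, Map6 and Mapt, and the 4 genes for stathmins were Stmn1, Stmn2, Stmn3 and Stmn4. They were chosen by name, as all sites whose gene symbol in the files equals one of these 10, which gave 10 of 18003 gene symbols and 116 of 98356 sites. Each site is a cluster of read ends that the study predicts as a place where a transcript was cut and polyadenylated (alternative polyadenylation, APA). Whether each site is a true end was not tested here.

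Whole Transcriptome Termini Site Sequencing (WTTS-Seq), which reads the 3′ ends of polyadenylated RNA, was applied to the hypothalamus of adult male Long-Evans rats, and the design text places the dissection in its mediobasal region. The 4 cannabis rats (replicates 1, 2, 3 and 5) breathed vapor of whole cannabis plant matter with 7.8% THC and 0.5% CBD for 10 min, and the 4 air-treated control rats (replicates 1 to 4) sat in an identical chamber with an empty vaporizer. All rats had eaten freely, food was then withheld, and tissue was taken 1 hr after exposure. By the study's description each library is taken here as from a single rat. P values then measure the spread between rats together with that of library making. The paper gives more rats per group for this cohort than libraries per group, and does not say how rats and libraries correspond.

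Microtubules are hollow rods of tubulin that carry cargo along axons and dendrites. Microtubule-associated proteins such as tau (Mapt) and MAP2 bind along the rod and stabilize or bundle it, with tau found mainly in axons and MAP2 mainly in dendrites. Stathmins bind free tubulin dimers and promote the shrinking of microtubules, and phosphorylation turns them off. Many neuronal RNAs can end at several APA sites, which can change the length of the untranslated tail and the signals it holds.

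The 8 libraries held from 1159811 reads (air control 4) to 3706778 reads (cannabis 2) on all sites, and 195556 reads fell on the 10 genes, which was 0.867% to 1.18% of the reads of a library. Values are normalized counts, that is reads divided by the size factor of the library, and 1 read was worth 0.664 to 1.99 normalized counts. Reads are taken near the 3′ end whatever the length of a transcript, so levels were set side by side between genes. Air control 4 and cannabis 1 stood apart from the other libraries. Over 3654 gene totals they correlated with each other at r = 0.931, against 0.825 to 0.861 between air control 4 and its own group and 0.807 to 0.858 between cannabis 1 and its own, and they had the highest shares of sites without a read, 26.1% and 17.0%. Other pairs across the groups were also closer to each other than to their own groups. Air control 2 and cannabis 3 correlated at r = 0.959, and air control 3 and cannabis 2 at r = 0.949. In a dissected tissue, fewer cells of a type and less RNA per cell cannot be told apart. Summed neuron markers (6 of 6 genes measured) ran from 1739 to 2756 normalized counts in the controls and from 1622 to 1834 in the cannabis rats. Summed hypothalamic neuron markers (8 of 8) did not overlap, at 3188 to 5569 against 7358 to 9364, and Avp, the vasopressin gene, was the largest part of that sum, at 1054 to 3082 against 3278 to 6314, while Oxt, Pmch, Hcrt, Agrp, Trh, Sim1 and Otp each overlapped. Nor was there overlap in the low sum of endothelial markers (3 of 4), at 81.1 to 88.0 against 93.0 to 115. Flt1 was the largest part of that sum, at 60.7 to 77.9 against 77.1 to 105, and Flt1, Cldn5 and Pecam1 each overlapped. Oligodendrocyte, astrocyte, microglia, choroid plexus and pituitary sums overlapped between the groups, and the part of any of these cell markers in the values below was not tested.

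Among the 10 genes the stathmin Stmn3 was the most abundant, with a mean over the 8 libraries of 7774 normalized counts and rank 13 of the 18003 genes. Map1b, the MAP of growing axons, came next with 6056 (rank 15) and lay below Stmn3 in 7 of 8 libraries. Mapt had 3319 (rank 41), Map1a 1682 (rank 104), Stmn2 1221 (rank 185), Map4 1199 (rank 191) and Map2 638 (rank 436). The lowest were Stmn1 at 347 (rank 970), Map6 at 154 (rank 2487) and Stmn4 at 71.9 (rank 4784). Stmn2 exceeded Map4 in only 5 of 8 libraries, so these neighbours did not differ beyond their spread. Map2 exceeded Stmn1 in 7 of 8 libraries, and the other neighbouring pairs kept their order in all 8.

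No total of the 10 genes passed the test between cannabis and air control. With limma on log2(normalized count + 1), 0 of 10 totals had P under 0.01, against 0.278% of all gene totals, and 0 had P under 0.05, against 2.41% of all. At an adjusted P under 0.1, again 0 members passed, against 0.00555% of all totals (1 gene). edgeR and DESeq2 on the recovered reads also called 0 of 10 at P under 0.01. For 0 of 10 totals were the groups without overlap, against 1.98% of all totals. The fitted change was above 0 for 8 of 10, with 56.4% of all totals above 0, and the median of the 10 was 0.13 on the log2 scale beside 0.05 for all genes. All 10 had an adjusted P of 0.999.

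**Figure D1:**
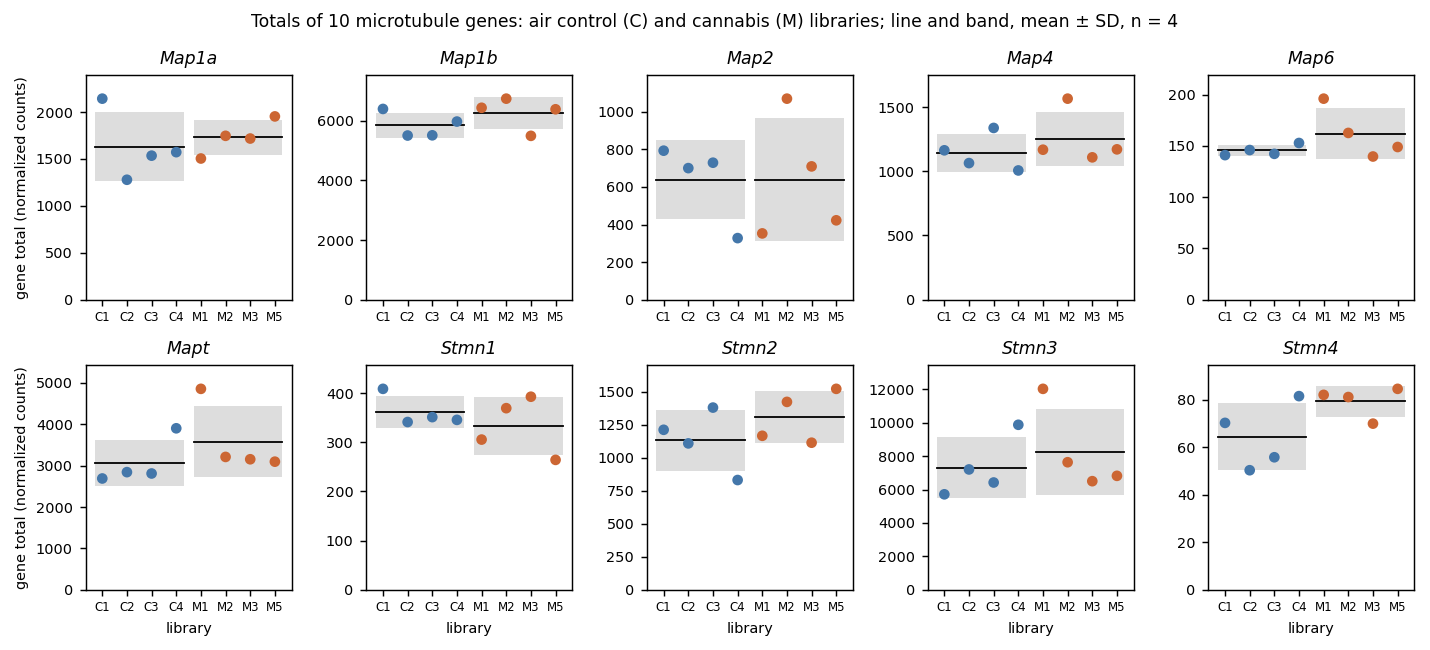
Total normalized counts per gene (y axis, from 0) in each library (x axis), air control 1 to 4 in blue and cannabis 1, 2, 3 and 5 in orange, with the group mean (line) and SD (grey band), n = 4. Every pair of groups overlaps, and air control 4 and cannabis 1 lie high together for Mapt and Stmn3 and low together for Map2.

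Of the large MAPs that decorate the microtubule wall, Map1b had the steadiest total, at 6397, 5505, 5513 and 5974 normalized counts in air controls 1 to 4 and 6436, 6742, 5495 and 6386 in cannabis 1, 2, 3 and 5. Both the highest and the lowest library were of cannabis rats, and the highest was 1.23 times the lowest. The log2 difference, cannabis minus control, was 0.10 ± 0.19 (SE; 95% interval -0.31 to 0.51; limma P = 0.616; exact permutation P = 0.314), so a fold of 0.805 to 1.42 lies within the interval. Map1a, the MAP of mature neurons, had 2143, 1279, 1536 and 1573 in the controls and 1505, 1747, 1718 and 1954 in the cannabis rats. Both its highest and its lowest library were controls, and the log2 difference was 0.10 ± 0.20 (limma P = 0.618; exact permutation P = 0.686).

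Map2, the dendritic MAP, varied most of all 10 genes. Its totals were 793, 700, 729 and 328 in the controls and 353, 1070, 709 and 422 in the cannabis rats. The highest library was 3.27 times the lowest, each group held both low and high libraries, and the group means were 638 ± 210 and 639 ± 326 normalized counts (SD, n = 4). The log2 difference was -0.06 ± 0.35, with a 95% interval of -0.82 to 0.71 that spans folds from 0.566 to 1.63. The lowest values, 328 and 353, came from air control 4 and cannabis 1, the pair of libraries that stood apart, and without them the log2 difference was -0.11 (limma adjusted P = 0.999).

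Mapt, which encodes tau, gave 2689, 2842, 2809 and 3900 in the controls and 4853, 3209, 3153 and 3095 in the cannabis rats. Here the same pair of libraries held the highest values, and the groups overlapped. Among the other 6, chosen after seeing the data, controls were at most 2842 and cannabis rats at least 3095. How many of all gene totals separate in those 6 was not counted, so this is given as a description only and not as a result about Mapt. The log2 difference was 0.21 ± 0.22 over all 8 libraries (95% interval -0.26 to 0.69; limma P = 0.343), and the exact permutation test of the means gave P = 0.4. Without that pair it was 0.18 (limma adjusted P = 0.999). Map4, the MAP found widely outside neurons too, had 1164, 1064, 1338 and 1007 in the controls and 1169, 1566, 1109 and 1171 in the cannabis rats, a log2 difference of 0.13 ± 0.19 (limma P = 0.517; exact permutation P = 0.457). Map6, which protects microtubules from cold, was close to even among the controls (141 to 153) and ran from 140 to 196 in the cannabis rats. Its log2 difference was 0.14 ± 0.20 (limma P = 0.489; exact permutation P = 0.257). Cannabis 1 at 196 and cannabis 2 at 163 lay above the controls, while cannabis 3 was the lowest library, at 140.

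Among the stathmins, Stmn3 had 5715, 7203, 6421 and 9874 in the controls and 12025, 7634, 6500 and 6820 in the cannabis rats. As with Mapt, air control 4 and cannabis 1 were the highest of the 8. The log2 difference was 0.16 ± 0.26 (limma P = 0.544; exact permutation P = 0.543), and folds of 0.761 to 1.64 lie in its 95% interval, and without that pair it was 0.12 (limma adjusted P = 0.999). Stmn2, the stathmin of axon growth and repair, had 1213, 1110, 1381 and 832 in the controls and 1167, 1424, 1115 and 1523 in the cannabis rats. Its lowest library was a control and its highest a cannabis library, with overlap between them and a log2 difference of 0.22 ± 0.21 (limma P = 0.317; exact permutation P = 0.286). Stmn1, the founding stathmin and a marker of proliferating cells as well, was at 409, 341, 351 and 346 in the controls and at 305, 369, 393 and 264 in the cannabis rats. Its fitted difference of -0.13 ± 0.20 (limma P = 0.510; exact permutation P = 0.486) and that of Map2 were the only negative ones.

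Stmn4 had the lowest level and the largest fitted difference. It had 70.2, 50.3, 55.7 and 81.4 normalized counts in the controls and 82.0, 81.0, 69.9 and 84.5 in the cannabis rats. The cannabis values lay close together at the upper end, and air control 4 reached the same level. The log2 difference was 0.32 ± 0.24 (95% interval -0.19 to 0.83; limma P = 0.202), and the exact permutation P was 0.143, the lowest of the 10 genes, where the design cannot go below 0.0286.

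**Figure D2:**
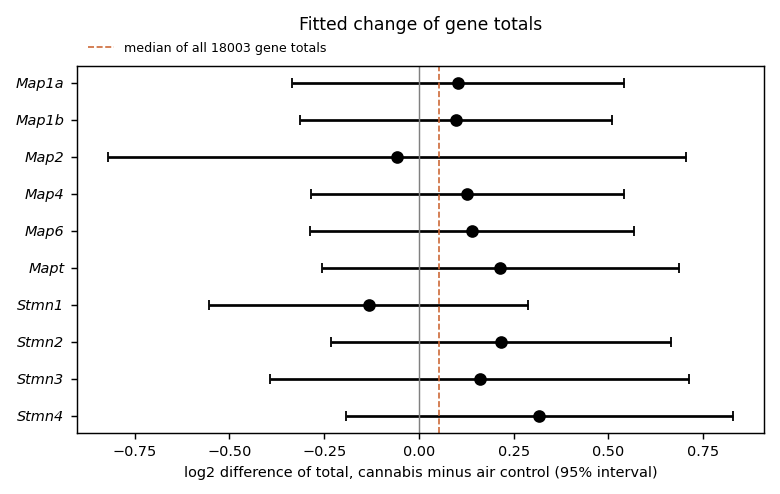
Fitted log2 difference of each gene total, cannabis minus air control (point), with its 95% interval (bar), and the median of all 18003 gene totals (dashed line at 0.05). All 10 intervals include 0, and that of Map2 is the widest, from -0.82 to 0.71.

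Summed over genes, the 6 MAPs had 12466 ± 813 normalized counts in the controls and 13628 ± 1071 in the cannabis rats (SD, n = 4; exact permutation P = 0.143). The 4 stathmins had 8863 ± 1605 and 9964 ± 2480 (exact permutation P = 0.571). The groups overlapped in both sums. With 4 against 4 this test cannot go below 0.0286, so it could not have reached the threshold of 0.01.

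The genes differed widely in how many sites they had. Map2 had 28 sites, Map1b 19, Map4 16, Map1a 15, Mapt 12, Stmn2 11, Map6 6, Stmn4 4, Stmn3 3 and Stmn1 2. Most sites were minor: 72 of the 116 had a mean under 10 normalized counts, and 16 had a mean of at least 100. In each library 89 to 113 of the 116 sites had a read, and 83.7 to 104 would be expected if every library had been read as shallowly as air control 4. Sites are numbered within a gene from the most to the least abundant.

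Positions on the rat genome build Rnor_6.0 were available for 17 of the sites, which held 93.6% of the reads of the 10 genes. By the study's classes, 10 of the 17 were exonic, 6 were distal (at annotated transcript ends) and 1 was intronic, holding 48.3%, 44.4% and 0.926% of the reads. The positions of the other 99 sites, with 6.36% of the reads, were not analysed here. Stmn3 rested on the distal site 1 at chr3:176808001-176808040 (minus strand), which took 99.7% to 99.9% of its total in every library, and Stmn1 on its distal site 1 at chr5:152686794-152687002 (plus strand). Map2 site 1 was the distal end at chr9:73462941-73463409 (plus strand) and Map4 site 1 the distal end at chr8:118159913-118160396 (plus strand). Map4 site 2, at chr8:118091378-118091809, was intronic and lay 68543 bases upstream of site 1.

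The neuronal genes Map1b, Mapt and Stmn2 each split their reads over several abundant sites. Map1b is on the minus strand of chromosome 2 and has 5 positioned exonic sites. Site 1, at chr2:29675386-29675485, lay farthest downstream, with site 5 (chr2:29675835-29675862) 371 bases, site 3 (chr2:29679249-29679313) 3802 bases, site 2 (chr2:29687910-29688230) 12707 bases and site 4 (chr2:29688288-29688412) 12903 bases upstream of it. Mapt is on the plus strand of chromosome 10, where the distal site 3 (chr10:92386497-92386814) was preceded by the exonic sites 2 (chr10:92384501-92384961) and 1 (chr10:92382670-92383185), 1996 and 3613 bases upstream. Stmn2 is on the minus strand of chromosome 2, with the distal site 2 at chr2:95424240-95424290 and the exonic site 1 at chr2:95425336-95425430, 1124 bases upstream.

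**Figure D3:**
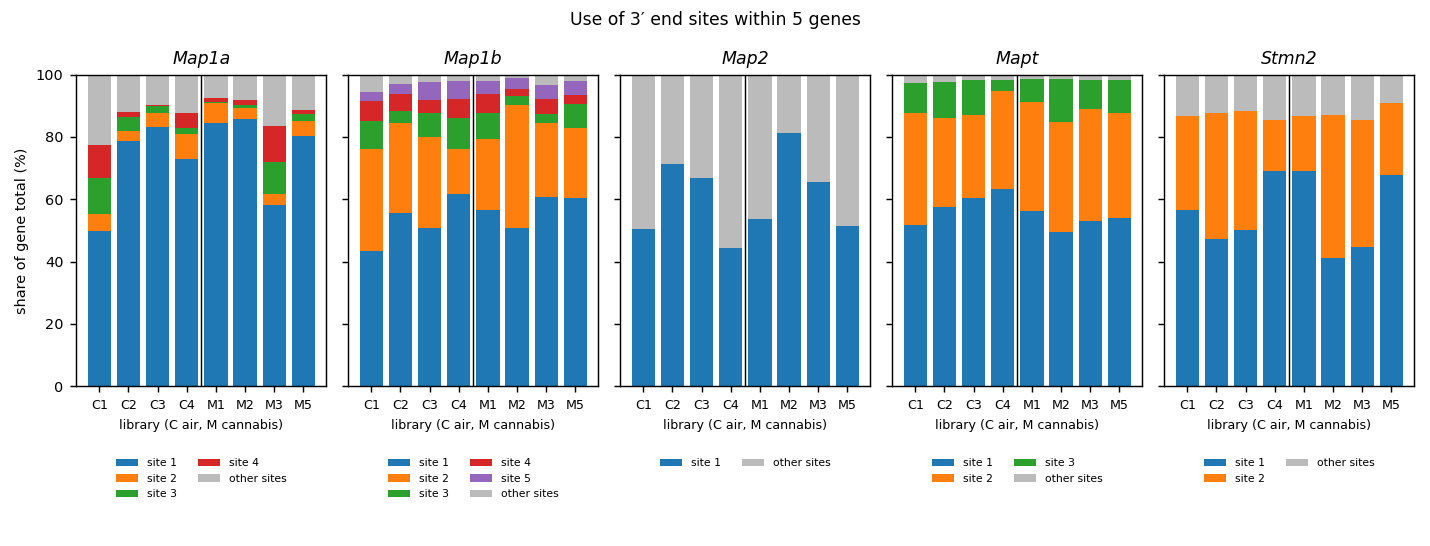
Share of each gene's total taken by its leading 3′ end sites (y axis, percent) in each library (x axis), with the black line between air controls (C) and cannabis rats (M), and all further sites in grey. Shares vary among rats of the same group, for example Map1a site 1 is at 49.9% in air control 1 and 58.2% in cannabis 3 and at 72.9% to 85.8% in the other 6.

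Map1b site 2, far upstream of the gene's 3′ end, took 32.9%, 28.7%, 29.3% and 14.3% of the total in air controls 1 to 4 and 22.7%, 39.5%, 23.9% and 22.6% in cannabis 1, 2, 3 and 5. The lowest and the highest share were in different groups but with wide overlap, and the log2 difference of the share was 0.07 ± 0.26 (SE; limma P = 0.777; exact permutation P = 0.857). The downstream site 1 took 43.4%, 55.7%, 50.9% and 61.8% in the controls and 56.6%, 50.7%, 60.6% and 60.3% in the cannabis rats (exact permutation P = 0.486). Neither site 3 nor site 4 passed the test, with log2 differences of -0.59 ± 0.40 (limma P = 0.164; exact permutation P = 0.229) and -0.53 ± 0.26 (limma P = 0.0714; exact permutation P = 0.2) on the log2 scale. Site 5 was at -0.02 ± 0.22 and did not pass the test.

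For tau, the share of an exonic end was nearly even among the cannabis rats. Mapt site 2 took 35.8%, 28.6%, 26.7% and 31.5% of the Mapt total in the controls and 34.9%, 35.3%, 36.1% and 33.7% in the cannabis rats. The cannabis rats lay within a narrow range, above 3 of the controls, while air control 1 matched them. The means were 30.7% ± 3.96 and 35.0% ± 0.975 (SD, n = 4), and the log2 difference of the share was 0.20 ± 0.07 (limma P = 0.0191; adjusted P = 1.00; exact permutation P = 0.114). Site 1, the most upstream of the 3, took 51.8%, 57.4%, 60.3% and 63.3% in the controls and 56.1%, 49.5%, 52.9% and 54.1% in the cannabis rats, a log2 difference of -0.13 ± 0.06 (limma P = 0.0420; exact permutation P = 0.143). Shares of a gene sum to 100%, so the directions of sites 1 and 2 are not separate results. Without air control 1 both shares passed P under 0.01 by limma, and neither had an adjusted P under 0.1. That fit called 149 of all 57287 shares. The distal site 3 took 9.82%, 11.7%, 11.2% and 3.31% in the controls and 7.55%, 13.9%, 9.36% and 10.4% in the cannabis rats, with its lowest share in air control 4 and a log2 difference of 0.32 ± 0.36 (limma P = 0.395; exact permutation P = 0.657).

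Stmn2 used its ends unequally among rats of both groups. Site 1 took 56.5%, 47.1%, 50.02% and 69.0% of the total in the controls and 69.1%, 41.2%, 44.7% and 67.9% in the cannabis rats. The high shares were those of air control 4, cannabis 1 and cannabis 5, and the group means, 55.7% ± 9.70 and 55.7% ± 14.9 (SD, n = 4), differed by 0.0755 percentage points (limma P = 0.902; exact permutation P = 0.971). The distal site 2 mirrored it, at 30.1%, 40.7%, 38.2% and 16.5% in the controls and 17.7%, 45.8%, 40.8% and 22.8% in the cannabis rats (limma P = 0.977; exact permutation P = 0.914).

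The distal site 1 of Map2 ranged 5.99-fold over the libraries. It had 400, 500, 487 and 145 normalized counts in the controls and 189, 868, 464 and 217 in the cannabis rats, and its share was 58.2% ± 13.0 and 62.8% ± 13.7 (SD, n = 4; exact permutation P = 0.629). The groups overlapped widely, and the highest and the second lowest levels were both of cannabis rats. Map4 site 2, the intronic end, took 15.7% ± 5.25 and 17.7% ± 5.78 of its gene (exact permutation P = 0.571). The leading sites of the lowly expressed genes, Map6 site 1 and Stmn4 site 1, took 49.6% ± 11.2 and 47.8% ± 7.18 (exact permutation P = 0.8), and 81.2% ± 8.91 and 83.0% ± 11.8, again within the spread.

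Site by site, limma on all 98356 sites called 0 of 116 member sites at P under 0.01, against 0.381% of all sites. At P under 0.05 it called 2 of 116, against 3.03% of all, and at an adjusted P under 0.1 it called 0, against 0.00102% (1 site). The shares gave the same picture, with 0 of 116 at P under 0.01 against 0.347% of the 57287 shares tested, 5 of 116 at P under 0.05 against 3.03%, and 0 at an adjusted P under 0.1 against 0%. Groups without overlap were found for 0 of 116 sites, against 2% of all sites, and for 0 of 116 shares, against 2.01%. The fitted change was above 0 for 55 of 116 sites, against 50.9% of all, and the median of the 116 was -0.06 on the log2 scale beside 0.01 for all sites.

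Both sites with P under 0.05 were rare ends with lower values in the cannabis rats, and they are named here because they are the whole of that count. Map1b site 10 had 16.8, 5.99, 6.04 and 9.93 normalized counts in the controls and 0, 5.98, 6.89 and 0.768 in the cannabis rats (log2 difference -1.66 ± 0.66; limma P = 0.0197; exact permutation P = 0.114). Map2 site 19 had 2.193, 2.39, 6.04 and 7.94 in the controls and 0, 1.33, 0.984 and 2.30 in the cannabis rats (-1.37 ± 0.62; limma P = 0.0392; exact permutation P = 0.0571). In both sites the groups overlapped, and a value near 1 normalized count is 1 or 2 reads. The 5 shares with P under 0.05 were those of Mapt sites 1 and 2, Map1b site 10, Map1a site 5 and Map4 site 4. Map4 site 4 took 1.76%, 1.35%, 1.56% and 2.76% in the controls and 1.17%, 1.40%, 0.355% and 0.590% in the cannabis rats (log2 difference of the share -1.12 ± 0.41; limma P = 0.0207; exact permutation P = 0.0571).

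**Figure D4:**
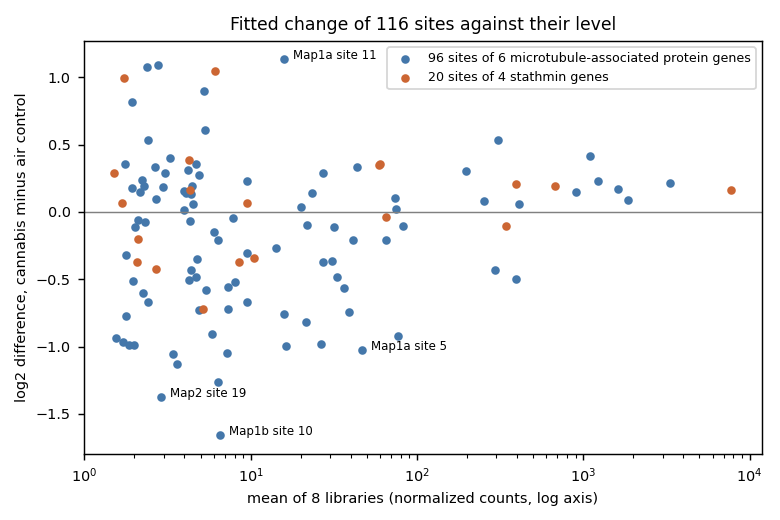
Fitted log2 difference, cannabis minus air control (y axis), of the 116 sites against their mean level in normalized counts (x axis, log scale), with the 96 sites of MAP genes in blue and the 20 sites of stathmin genes in orange. The 16 sites with a mean of at least 100 lie between -0.50 and 0.53, and the larger differences belong to sparser sites such as Map1a site 11, Map1a site 5, Map1b site 10 and Map2 site 19.

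A rare upstream end of Map1a was the only member site whose call depended on the tool. Map1a site 1, the main end at chr3:113271611-113272114 (plus strand), had 1125 ± 118 normalized counts in the controls and 1335 ± 257 in the cannabis rats (SD, n = 4; exact permutation P = 0.257). Map1a site 11 is exonic, at chr3:113266322-113266417 (plus strand), 5282 bases upstream of site 1. It had 8.77, 4.79, 1.34 and 3.97 normalized counts in the controls, from 12, 4, 2 and 2 reads, and 0, 4.65, 60.03 and 43.0 in cannabis 1, 2, 3 and 5, from 0, 7, 61 and 56 reads. The high values were thus in cannabis 3 and 5, while cannabis 1 and 2 lay below the highest control. The limma log2 difference was 1.13 ± 0.90 (P = 0.224), and the exact permutation P was 0.371.

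On the recovered reads, Map1a site 11 alone of the member sites passed P under 0.01. edgeR gave it a log2 difference of 2.52 (adjusted P = 1.00), and called 0.526% of all sites. DESeq2 gave 2.50 (adjusted P = 1.00), and called 0.316% of the sites with a P value. The paper, which also used DESeq2, lists an exonic Map1a site with the average reads of site 11 among its differentially expressed APA sites. Without air control 4 and cannabis 1, an alternative chosen after seeing the data, limma called 1 of 116 sites, the same Map1a site (log2 difference 2.28; adjusted P = 1.00), against 0.434% of all sites, and 1 of 116 shares, Mapt site 6, against 0.429%. Without cannabis 1 alone the limma difference of Map1a site 11 was 2.29 (P under 0.01; adjusted P = 0.970), and without cannabis 3 it was 0.31 (adjusted P = 1.00). The fit without cannabis 1 called 594 of all 98356 sites.

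**Figure D5:**
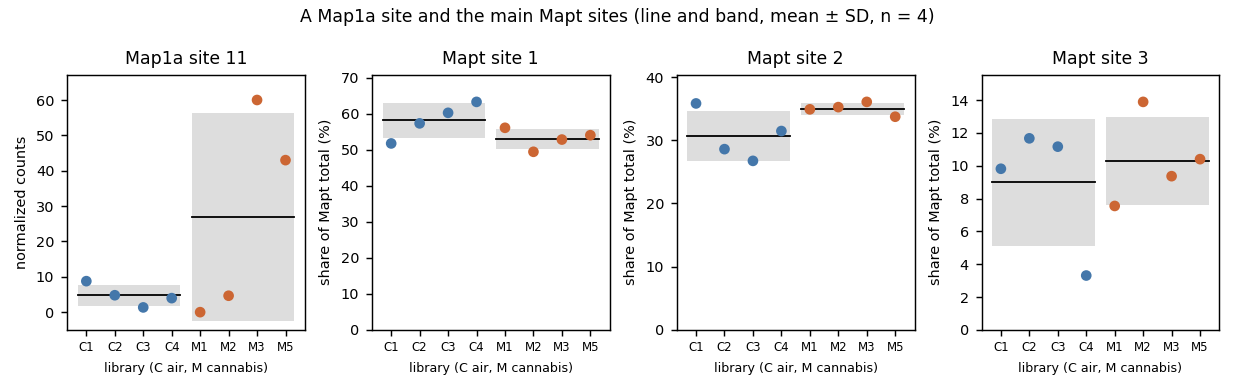
Level of Map1a site 11 (left, normalized counts) and shares of Mapt sites 1, 2 and 3 in the Mapt total (percent) in each library (x axis), air controls in blue and cannabis rats in orange, with group mean (line) and SD (grey band), n = 4. Map1a site 11 is high in cannabis 3 and 5 only, and Mapt site 2 lies between 33.7% and 36.1% in all 4 cannabis rats and in air control 1 too, at 35.8%.

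Other minor sites of Map1a, whose positions were not analysed, varied between rats of the same group. Outside site 1, the Map1a total was 50.1%, 21.4%, 16.7% and 27.1% in the controls and 15.5%, 14.2%, 41.8% and 19.7% in the cannabis rats. Air control 1 and cannabis 3 stood out, and the same pair led at single sites, named after their values were seen. Site 4 had 229 and 200 normalized counts in this pair and 7.39 to 75.5 in the other 6 libraries, site 3 had 245 and 174 against 8.69 to 59.9, and site 10 had 84.8 and 60.03 against 0 to 12.3. Map1a site 5 was high in air control 1 only, at 131, with 41.9, 41.0 and 35.7 in the other controls and 7.45, 25.2, 44.3 and 49.2 in the cannabis rats (log2 difference -1.03 ± 0.53; limma P = 0.0666; exact permutation P = 0.314). The log2 difference of its share was -1.13 ± 0.48 (limma P = 0.0389; exact permutation P = 0.114).

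Summed over the 10 genes, air control 1 had the highest counts at minor sites. It was the highest of the 8 libraries at 13 of the 44 member sites with a mean of at least 10. The share of all sites led by it was not counted. Outside site 1 of each gene, it led at 8 of 14 sites of Map1a, 8 of 18 of Map1b and 8 of 27 of Map2. For the others this was 2 of 15 (Map4), 1 of 5 (Map6), 3 of 11 (Mapt), 1 of 1 (Stmn1), 2 of 10 (Stmn2), 0 of 2 (Stmn3) and 1 of 3 (Stmn4). The 72 sites with a mean under 10 summed to 504 normalized counts in it and to 232 to 316 in the other libraries, and the 28 sites with a mean from 10 to 100 summed to 1938 in it, 1366 in cannabis 3 and 852 to 981 elsewhere. Stmn1 site 2 had 34.4 normalized counts in air control 1 and at most 4.92 elsewhere, and Map2 site 28 had 17 reads, all of them in air control 1. Without air control 1 the fitted change was above 0 for 66 of 116 sites, against 54.4% of all sites, and their median turned from -0.06 to 0.08.

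Lists of other microtubule genes were read against all gene totals, of which 0.278% had P under 0.01 and 2.41% had P under 0.05. Of 12 measured tubulins (of 15 listed), the subunits of the rod itself, 0 had P under 0.01 by limma and 1 had P under 0.05, and the median log2 difference was 0.09. That gene was Tubg1, which encodes the gamma-tubulin that nucleates microtubules, with 49.7, 33.5, 57.1 and 33.8 normalized counts in the controls and 58.4, 105.6, 56.1 and 66.0 in the cannabis rats (log2 difference 0.69 ± 0.29; limma adjusted P = 0.999). Of 29 measured genes (of 31) for other microtubule binding and end proteins, such as doublecortin and the end-binding proteins, 0 had P under 0.05 and the median was 0.03. Of 20 kinesin and dynein motor genes (of 20), 0 had P under 0.05 and the median was 0.09. Of 25 measured genes (of 28) for enzymes that act on tau, stathmins or microtubules, such as Cdk5, 0 had P under 0.05 and the median was 0.00, beside 0.05 for all gene totals.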

How the data were processed

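The 8 WTTS-Seq libraries were grouped by the sample labels. The authors filtered and trimmed the reads, aligned them to Rnor_6.0 using TMAP, merged read ends that lay within 24 nt, kept sites with at least 16 reads and named genes with Cuffcompare. The deposited signal is a normalized count per site, where reads are divided by the size factor that DESeq2 gives a library, and the 8 files were joined by row order. Every value (100% within 0.001 reads) was a whole number of steps of 1 read, so reads were recovered. Low counts limit the precision of sparse sites, and 3 reads were taken as the least that can be detected in a library.

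Totals summed all sites of a symbol, and shares divided a site by its total. Positions came from site tables of the study, matched by symbol and by all 8 values. All sites, totals and shares in the files were tested (cannabis minus air control, two-sided) by limma 3.58.1 in R 4.3.3 (lmFit, then eBayes with a trend) after a log2(value + 1) transformation, a scale that understates changes of low values, with Benjamini-Hochberg adjustment over each table. Thresholds were 0.01 for P and 0.1 for adjusted P. Single values had an exact two-sided permutation test. Alternatives were a pseudocount of 0.5 or 5, only features whose mean reached 10, each library left out, a replicate block, a covariate for the value of 1 read, equal library totals, and edgeR 4.0.16 quasi-likelihood and DESeq2 1.42.0 on recovered reads. The fit was tested on simulated data. Other steps used scipy 1.17.1, pandas 2.3.3 and numpy 2.4.6 under Python 3.11.15, and figures matplotlib 3.10.9.

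The members and gene lists were chosen with earlier results of these data known. Named sites were the most abundant of each gene, those with a mean of at least 100, and those with P under 0.01. Others were named after their values were seen. For the mean z-scored totals of each family, the 3 most alike genes were named. Antisense and overlapping genes follow the study's assignment.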

Additional observations from a re-analysis of the deposited data

Results flagged for a closer look

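In 10 of 112 groups of 4 libraries, the highest or lowest library lay so far from the others that its gap, as a part of the range of the group, passed Dixon's critical value, which chance gives in about 1 in 20 groups. Of the gene totals, Mapt was set apart in both groups, at 3900 normalized counts in air control 4 (the other controls 2689 to 2842) and at 4853 in cannabis 1 (the others 3095 to 3209), and its sites 1 and 2 were so in cannabis 1, at 2725 and 1694. These libraries resembled each other more than their own groups, as did air control 2 with cannabis 3 and air control 3 with cannabis 2. The part of that likeness in the values was not tested. The Map4 total was apart in cannabis 2, at 1566 against 1109 to 1171, and so was Map1b site 2, at 2665 normalized counts against 1312 to 1463 and at a share of 39.5% against 22.6% to 23.9%. Air control 1 was apart for the Stmn1 total, at 409 against 341 to 351, for Map1a site 5, at 131 against 35.7 to 41.9, and for the share of Stmn1 site 1, at 91.6% against 99.6% to 100%.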

How the results depend on the processing

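Over 879 recomputed values of 56 results, 795 kept their direction and side of the threshold, 73 changed sign and 11 moved past P under 0.01. The count of totals called was 0 under every alternative, while sites called was 1 with edgeR, 1 with DESeq2 and 1 in the 6 libraries, and 0 to 2 with each library left out, and shares called was 1 in the 6 libraries and 0 to 2 with each library left out. The calls were Map1a site 11 and Mapt site 6 without cannabis 1 (shares: Map1b site 4 and Mapt site 6), Map1a site 9 and Map1b site 10 without cannabis 2 (shares: Map1a site 9 and Map4 site 4), Map1b site 10 without cannabis 3, and the Mapt shares without air control 1. No member call had an adjusted P under 0.1, and the causes were not tested. Over all features, each library left out in turn gave 227 to 617 of 98356 sites and 149 to 316 of 57287 shares at P under 0.01.

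The labels give replicate numbers 1, 2 and 3 to both groups. Deviations of same-numbered libraries from their group means correlated at r = -0.28, 0.16 and -0.17 over 3654 genes. These values gave no sign of a pairing, but 3 pairs cannot exclude it. With the number as a block (6 libraries), 0 totals, sites and shares were called, as in the fit without it. Signs that turned under the block were those of the levels of Map1b site 2 (-0.022), Map2 site 1 (-0.12), Map6 site 1 (-0.018), Stmn2 site 1 (-0.023) and Stmn2 site 2 (-0.17), the Stmn2 total (-0.0013), and the shares of Map1b site 2 (-0.12), Map1b site 5 (0.078), Map4 site 2 (-0.023), Mapt site 3 (-0.13) and Stmn4 site 1 (-0.047). With the value of 1 read as a covariate they were those of the levels of Map2 site 1 (-0.19) and Stmn2 site 2 (-0.044) and the shares of Map1b site 2 (-0.078), Map1b site 5 (0.026), Stmn2 site 1 (0.039) and Stmn4 site 1 (-0.012). In the 6 libraries without air control 4 and cannabis 1 they were those of the levels of Map1b site 2 (-0.030), Map2 site 1 (-0.052) and Map6 site 1 (-0.14) and the shares of Map1b site 2 (-0.12) and Map1b site 5 (0.13).

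With each library left out, the log2 difference ran from -0.0052 to 0.24 for the Map1a total, -0.35 to 0.18 for Map2 and -0.037 to 0.32 for Stmn3. For levels it ran from -0.087 to 0.35 for Map1b site 2, -0.077 to 0.23 for Map1b site 5, -0.37 to 0.36 for Map2 site 1, -0.043 to 0.19 for Map6 site 1, -0.096 to 0.25 for Mapt site 1, -0.21 to 0.50 for Stmn2 site 2 and -0.037 to 0.32 for Stmn3 site 1. For shares it ran from -0.033 to 0.26 for Map1a site 1, -0.20 to 0.21 for Map1b site 2, -0.22 to 0.15 for Map1b site 5, -0.017 to 0.22 for Map2 site 1, -0.023 to 0.073 for Map4 site 1, -0.024 to 0.37 for Map4 site 2, -0.21 to 0.066 for Map6 site 1, -0.11 to 0.49 for Mapt site 3, -0.0039 to 0.038 for Stmn1 site 1, -0.14 to 0.11 for Stmn2 site 1, -0.29 to 0.23 for Stmn2 site 2, -0.00042 to 0.00044 for Stmn3 site 1 and -0.045 to 0.092 for Stmn4 site 1. No result whose sign turned had passed the threshold, so a turned sign lies within their error.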

Other observations

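The genes whose totals most resembled the mean z-scored pattern of the 6 MAPs over the 8 libraries, among 3645 genes with a mean of at least 100, were Slc39a7, a zinc transporter (Pearson r = 0.959), Cdh13, a cadherin (r = 0.897), and Cyp46a1, the cholesterol hydroxylase of neurons (r = 0.888). For the 4 stathmins they were Slc39a7 again (r = 0.953), Emc10 (r = 0.921) and Slc15a4 (r = 0.871). Slc39a7 had 166, 118, 141 and 141 normalized counts in air controls 1 to 4 and 194, 209, 156 and 172 in cannabis 1, 2, 3 and 5, with overlap between the groups. Both family patterns were lowest in air control 2 (mean z of -0.71 and -0.61) and highest in cannabis 2 (0.91 and 0.53). The 8 points share their libraries and scaling, and the r values are the highest found in a search, given as a description.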
